A study of Homo sapiens with 3 samples.

Results

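Genes that make and break down eicosanoids were compared over 3 microarrays of A549, a human cell line established from an adenocarcinoma of the lung. The set held 10 genes, namely PLA2G4A, PTGS1, PTGS2, PTGES, PTGES2, PTGES3, HPGD, ALOX5, ALOX5AP and LTA4H, of 22435 genes with a RefSeq name on the array. The genes were chosen by name for their place in the pathway, and their 12 probes, of 58191 with a value on all arrays, were found through the accession that each probe carries in the array design. One array held RNA of control cells given 0.1% DMSO, the second RNA of cells given cordycepin at 60 μg/mL, and the third RNA of cells given cordyceps at 100 μg/mL, each for 48 h. Cordycepin is 3'-deoxyadenosine, a nucleoside of the fungus Cordyceps militaris, and the labels do not say how the cordyceps was prepared or which vehicle the treated cells received. By the labels, the DMEM of all cells, controls included, held fetal bovine serum at 10% and penicillin-streptomycin at 1%, and further held nicotinamide at 10 mM, troglitazone at 10 μM and zinc sulfate at 16.7 μM, whereas the methods of the study name the serum and antibiotics alone. Troglitazone is an agonist of PPARγ, a nuclear receptor that binds fatty acids and their oxidation products, and was shared by all conditions. There was 1 array per condition, so each difference given here separates 2 arrays, without an error between replicates or a p-value, and may be technical.

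Eicosanoids are lipid mediators made from arachidonic acid, a fatty acid held in membrane phospholipids. A phospholipase A2 releases the acid, and it then enters the cyclooxygenase branch, which leads to prostaglandins and thromboxane, or the lipoxygenase branch, which leads to leukotrienes. In the cyclooxygenase branch PTGS1 and PTGS2 make prostaglandin H2, terminal synthases such as PTGES turn it into prostaglandin E2, and HPGD inactivates the product. In the lipoxygenase branch ALOX5, presented with its substrate by ALOX5AP, makes leukotriene A4, which LTA4H turns into leukotriene B4. Prostaglandin E2 made through PTGS2 is well known in lung adenocarcinoma, whereas leukotrienes are known mainly as products of myeloid cells.

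The promoter windows of the cyclooxygenase pair are shown because PTGS2 was measured on every array and called with cordyceps, whereas PTGS1 was not well above background on any. Each window runs from 250 bases before a RefSeq transcription start to 50 bases after it on GRCh38.p14. Such an entry was found for 9 of the 10 genes, all but ALOX5. PTGS2 had 1 start, at chr1:186680374-186680673 on the minus strand. PTGS1 had 2 starts, at chr9:122370283-122370582 and chr9:122375052-122375351 on the plus strand. Capitals mark the matches to 6 short motifs searched in every window. The motifs were the Sp1 core GGGCGG, the core of the cyclic AMP response element TGACG, the AP-1 site TGANTCA, the E-box CACGTG and the short NF-kB core GGGACT, all on both strands, and the TATA box TATAAA on the strand of the gene.
PTGS2: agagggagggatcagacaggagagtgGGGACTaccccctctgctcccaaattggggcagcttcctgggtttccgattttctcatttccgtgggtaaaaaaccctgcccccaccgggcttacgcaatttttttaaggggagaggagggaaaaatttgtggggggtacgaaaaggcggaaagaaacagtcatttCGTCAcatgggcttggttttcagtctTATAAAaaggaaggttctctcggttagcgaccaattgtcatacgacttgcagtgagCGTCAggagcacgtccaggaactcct
PTGS1 start 1: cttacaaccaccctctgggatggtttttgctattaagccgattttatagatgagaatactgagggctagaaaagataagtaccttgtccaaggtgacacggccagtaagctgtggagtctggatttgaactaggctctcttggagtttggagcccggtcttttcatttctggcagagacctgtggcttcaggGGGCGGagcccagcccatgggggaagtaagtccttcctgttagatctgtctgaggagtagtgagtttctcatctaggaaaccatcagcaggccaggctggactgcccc
PTGS1 start 2: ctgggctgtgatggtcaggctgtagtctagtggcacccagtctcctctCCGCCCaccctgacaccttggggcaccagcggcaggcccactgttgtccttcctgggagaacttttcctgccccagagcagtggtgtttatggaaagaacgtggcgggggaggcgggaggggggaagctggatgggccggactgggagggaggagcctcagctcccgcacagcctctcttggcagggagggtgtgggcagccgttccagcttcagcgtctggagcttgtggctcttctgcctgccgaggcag
The PTGS2 window held a TATA box at position -32 from the start, found in 7.33% of 35116 promoter windows of the same length. On the opposite strand it held the core of the cyclic AMP response element (CGTCA) at -58 and at 25, a motif of 24.6% of windows. The short NF-kB core lay at -224, a motif of 19.3% of windows. Neither PTGS1 window held any of these, and each held 1 Sp1 core, at -58 in the first and on the opposite strand (CCGCCC) at -202 in the second, a motif of 45.0% of windows. Windows of ALOX5AP, PTGES, PTGES2 and PTGES3 held the short NF-kB core too, and windows of PTGES3 and HPGD the cyclic AMP core. The short NF-kB core and the cyclic AMP core were thus not particular to PTGS2. Among the 9 genes with windows, the TATA box was found in PTGS2 alone. How the motifs relate to the ratios was not tested. The GC content was 50.7% for PTGS2 and 50.7% and 64.7% for the starts of PTGS1. A match is a description of letters, and factor binding was not measured.

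The signals below are the background-subtracted processed signals of the scanner software, in arbitrary units and before any scaling between arrays. A ratio is a difference of log2 signals after the 75th percentile of each array was subtracted, which was a signal of 260.1 for control, 224.3 for cordycepin and 260.2 for cordyceps. Scaling by array medians, an alternative used below, rests on dim probes near or under the lowest detected signal. On these arrays in turn, 49.0%, 47.5% and 42.1% of probes were well above background. The brightest probe stood for a gene, and a change was called at 2-fold (a log2 ratio of 1) when either array of the pair had the probe well above background. Technical error was measured in a pair of ways. The error that the scanner software gives for a single spot was 10% of the signal for bright probes. The SD of the log2 ratio of a single probe, estimated from the 2 brightest probes of 3356 genes, was 0.35 for cordycepin over control and 0.34 for cordyceps over control, which is the technical SD used here. A robust estimate from the median absolute deviation, which discounts genes whose probes disagree strongly, was lower, at 0.25 and 0.20. Neither measure covers the spread between cultures, or error shared by the probes of an array, such as that of labelling, hybridization or scaling. The SD from probe pairs also takes in differences between transcripts of a gene. Multiples of it are therefore a scale for the ratios and no test statistic.

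**Figure D1:**
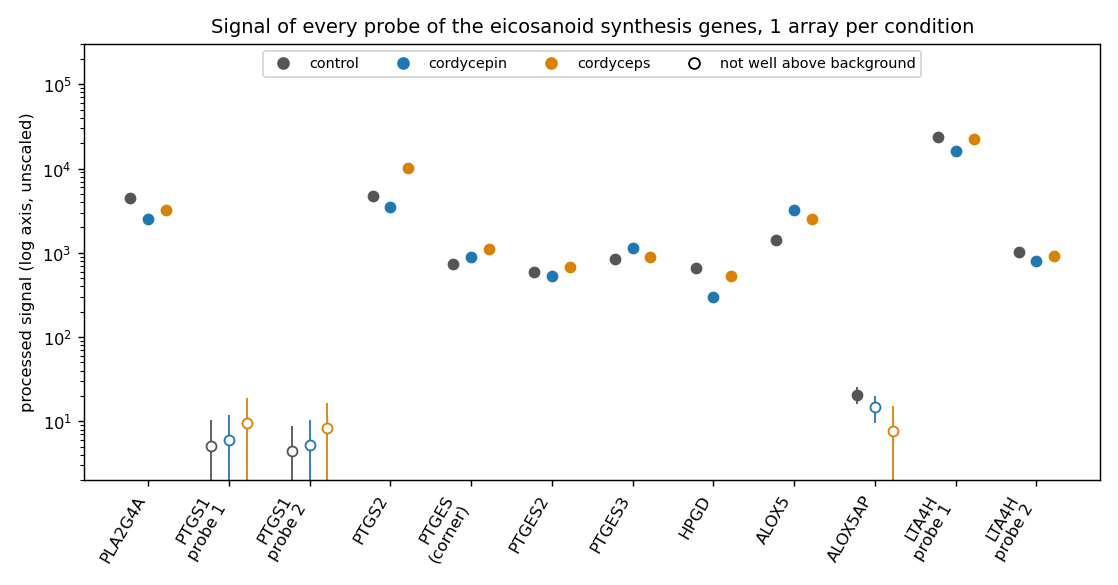
Processed signal (log axis, unscaled) of the 12 probes of the 10 genes on the control, cordycepin and cordyceps arrays; bars are the error estimate of the scanner software and are hidden by the points where small, and open points are not well above background. PTGS2 was highest on the cordyceps array at 10141, ALOX5 was highest on the cordycepin array at 3219, and both PTGS1 probes stayed under 10 on each array.

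PLA2G4A encodes cytosolic phospholipase A2α, the enzyme that frees arachidonic acid from membranes after a rise in calcium. Its probe was printed 10 times on each array and thus is the only member with a measured spread between spots. The 10 spots ran from 4180 through a median of 4480 to 4752 on the control array. They ran from 2444 through 2527 to 2625 on the cordycepin array and from 3114 through 3200 to 3450 on the cordyceps array. These unscaled spots did not overlap between arrays, with the control array highest and the cordycepin array lowest. The arrays as wholes also differed before scaling, with 75th percentiles of 260.1 for control, 224.3 for cordycepin and 260.2 for cordyceps. Spots of 1 array share a hybridization, so their spread leaves out error between arrays. On the control, cordycepin and cordyceps arrays, 288, 289 and 287 probes printed 10 times were detected. Their median SD between spots was 0.06, 0.05 and 0.05 in log2, and how many of them also did not overlap was not counted. The lack of overlap is therefore not shown to be particular to PLA2G4A. The log2 ratio was -0.60 ± 0.040 (SD between 10 spots of 1 array pair) with cordycepin, or 1.52-fold lower, and -0.47 ± 0.096 with cordyceps, or 1.38-fold lower. Neither reached 2-fold, and 20.8% of genes measured with cordycepin and 28.2% of those measured with cordyceps differed by as much in either direction. In bulk RNA a lower signal can mean fewer cells that make a transcript or less of it in each cell, and these cannot be told apart.

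**Figure D2:**
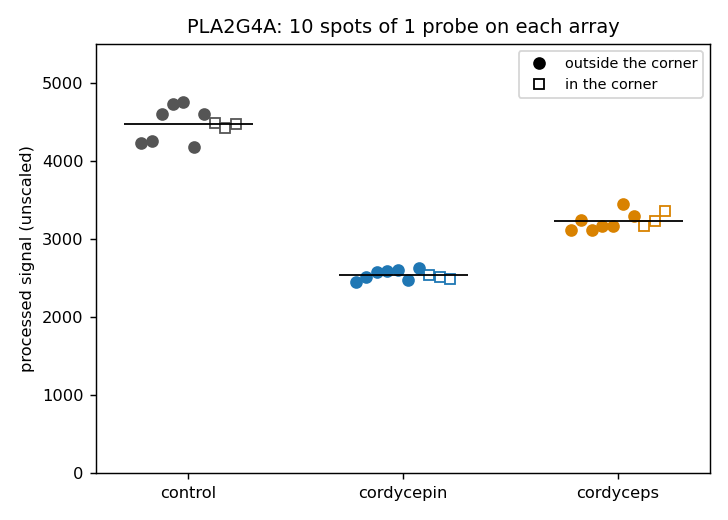
Processed signal (unscaled, axis from 0) of each of the 10 spots of the PLA2G4A probe on the 3 arrays; lines are the means, and open squares are the 3 spots in the corner of the array described later in the text. The control spots lay between 4180 and 4752, above all cordyceps spots (3114 to 3450), which lay above all cordycepin spots (2444 to 2625). How many other probes printed 10 times separate in this way was not counted.

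PTGS1, the cyclooxygenase that most tissues make constitutively, was not well above background on any array by either of its probes. The brighter probe read 5.16 in the control, 5.98 with cordycepin and 9.51 with cordyceps, and the dimmer probe read 4.46, 5.25 and 8.32. The lowest signal that counted as well above background was 18.6, 21.8 and 34.5 on these arrays in turn, so no fold was taken. The signals were of the size of their own error estimates, 5.18 for the brighter probe on the control array and 9.54 on the cordyceps array.

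PTGS2, the inducible cyclooxygenase, was the only member called with cordyceps. Its single probe (A_24_P250922) read 4656 ± 466 (software error, 1 spot) in the control, 3482 ± 348 with cordycepin and 10141 ± 1014 with cordyceps. The cordyceps array was thus the high one, and the cordycepin array lay slightly under the control. The log2 ratio was 1.12 with cordyceps (2.18-fold higher), which is 3.28 times the technical SD and 5.48 times its robust estimate, and 97.6% of the 13889 genes measured on both arrays had a lower ratio. With cordycepin the log2 ratio was -0.20 (1.15-fold lower), which is 0.59 times the technical SD. The raw spot signal without background subtraction gave the same order, at 4699, 3630 and 10307. The probe lay at row 245 and column 48, outside the corner described later in the text, in a block of the array where 2.02% of probes were called higher with cordyceps. Over 12 alternative settings its ratio with cordyceps ran from 1.12 to 1.39.

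The terminal prostaglandin E synthases differed less. PTGES, the microsomal synthase that is usually induced together with PTGS2, read 730.4 ± 73.2 in the control, 895 ± 89.6 with cordycepin and 1110.3 ± 111.3 with cordyceps. Both treated arrays were above the control, with log2 ratios of 0.51 (1.42-fold) and 0.60 (1.52-fold), the latter 1.76 times the technical SD and 2.95 times its robust estimate. Its spot lay in the corner. PTGES2, a second microsomal synthase, read 588, 524 and 674 on the control, cordycepin and cordyceps arrays, with log2 ratios of 0.05 and 0.20, both within 1 technical SD of 0. Its ratio with cordycepin turned to -0.22 when arrays were scaled by their medians. PTGES3, the cytosolic synthase that is also the p23 cochaperone of HSP90, read 845 in the control, 1144 with cordycepin and 898 with cordyceps. The cordycepin array was the high one, with a log2 ratio of 0.65 (1.57-fold), or 1.86 times the technical SD, against 0.09 with cordyceps.

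HPGD, the dehydrogenase that inactivates prostaglandins, was the member with the lowest ratio with cordycepin. It read 664 ± 66.6 in the control, 296 ± 30.2 with cordycepin and 537 ± 54.6 with cordyceps. The cordycepin array was the low one. The log2 ratio was -0.95 with cordycepin, 1.93-fold lower, 2.72 times the technical SD and short of the 2-fold call, and 3.55% of genes had a lower one. It was -0.31 with cordyceps (1.24-fold lower), or 0.89 times the technical SD. Over 12 settings the ratio with cordycepin ran from -1.21 to -0.82, and it passed 2-fold when arrays were scaled by their medians or not at all.

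ALOX5, the lipoxygenase that starts leukotriene synthesis, was the only member called with cordycepin. Its single probe (A_23_P104464) read 1402 ± 140.3 in the control, 3219 ± 322 with cordycepin and 2546 ± 255 with cordyceps. Both treated arrays were above the control. The log2 ratio was 1.41 with cordycepin (2.66-fold higher), which is 4.04 times the technical SD and 5.56 times its robust estimate, and 98.3% of the 14600 genes measured on both arrays had a lower one. With cordyceps it was 0.86 (1.82-fold higher, 2.51 times the technical SD and 4.20 times its robust estimate), under the 2-fold call, and 96.1% of genes had a lower one. Over 12 settings the ratio ran from 1.15 to 1.47 with cordycepin and from 0.75 to 1.13 with cordyceps, where scaling by array medians took it past 2-fold. The probe lay at row 271 and column 8, outside the corner, in a block where 5.14% of probes were called higher with cordycepin and 1.33% with cordyceps. ALOX5 also stands in a list of higher genes that the study drew from these same arrays, so that list is no independent evidence of its direction.

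The partners of ALOX5 did not share its pattern. ALOX5AP, the membrane protein that hands arachidonic acid to ALOX5, read 20.8 ± 4.59 in the control, 14.8 ± 5.09 with cordycepin and 7.69 ± 7.71 with cordyceps. It was well above background on the control array alone, by little, and no fold could be set against the floors of the other arrays. LTA4H, the hydrolase that makes leukotriene B4, had 2 probes for different transcripts. The brighter one read 23592 in the control, 16055 with cordycepin and 22135 with cordyceps, with log2 ratios of -0.34 and -0.09. The dimmer one read 1025, 792 and 915, with log2 ratios of -0.16 and -0.16. All of these ratios lay within 1 technical SD of 0, and the brighter probe's ratio with cordyceps turned to 0.18 when arrays were scaled by their medians.

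**Figure D3:**
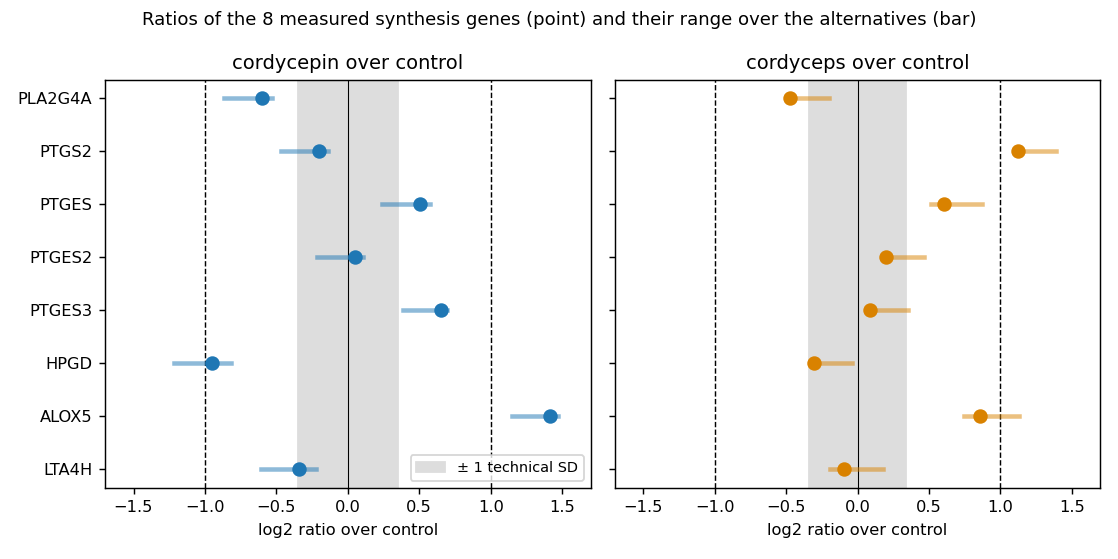
Log2 ratio over control (horizontal axis) of the 8 genes measured on both arrays, for cordycepin (left) and cordyceps (right); points are the reported values, coloured bars their range over the alternative settings, the grey band 1 technical SD either side of 0 and dashed lines 2-fold. ALOX5 at 1.41 with cordycepin and PTGS2 at 1.12 with cordyceps lay past the 2-fold line, and HPGD at -0.95 with cordycepin lay just inside it.

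Across the set, 9 of 10 genes were well above background on an array or more of each pair and 8 on both. With cordycepin, 1 of the 9 was called higher and 0 lower, beside 5.95% higher and 3.57% lower among the 15917 genes tested. The ratios of the 8 measured genes ran from -0.95 to 1.41 with a median of -0.08, against a median of -0.05 over all genes, and 4 lay above 0 and 4 below. With cordyceps, 1 of the 9 was called higher and 0 lower, beside 4.19% higher and 3.15% lower among the 15602 genes tested, and beside 2.66% higher and 3.09% lower among the 12369 genes with their brightest probe outside the corner. The ratios ran from -0.47 to 1.12 with a median of 0.14, against -0.11 over all genes, and 5 lay above 0 and 3 below. A single call of 9 does not separate the set from these backgrounds. Both comparisons use the same control array, and their values for a gene are therefore not independent. The balance of directions also moved with the scaling. Of all genes called, 62.5% were higher with cordycepin, against 33.6% with median scaling, 39.4% with no scaling, and 57.1% were higher with cordyceps, against 82.2% with median scaling, 66.5% with the percentile taken over probes detected on all arrays and 68.4% with block medians removed. Median scaling moved the median ratio of all genes to -0.32 with cordycepin and to 0.16 with cordyceps. Relative to the median of all genes, which such a constant shift leaves as it is, the median of the set was -0.03 and 0.25.

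By the rule set for likeness, the genes nearest to ALOX5 over the 2 log2 ratios were sought among 10999 genes measured on all 3 arrays outside the corner. EFEMP1, a fibulin of the extracellular matrix, lay nearest, at a distance of 0.041 with ratios of 1.39 and 0.83. PATL2 followed at 0.13 with 1.43 and 0.73, and FAM86B1 at 0.14 with 1.28 and 0.85. In all, 21 genes lay within a distance of 0.25, and the likeness rests on 3 arrays.

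Genes on either side of the synthesis steps were taken from 8 lists with 82 genes, of which 80 were on the array. With cordycepin, 58 were tested, 3 were called higher and 4 lower, beside the 5.95% and 3.57% of all genes, and 34 of the 54 measured on both arrays lay below 0, against 7981 of 14600 over all genes. With cordyceps, 58 were tested, 2 were called higher and 2 lower, beside the 4.19% and 3.15% of all genes, and 38 of 49 lay below 0, against 8524 of 13889 over all genes. The median of the listed genes was -0.15 with cordycepin and -0.32 with cordyceps, or -0.10 and -0.21 relative to the median of all genes.

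Among genes that supply the substrate, 2 phospholipases were called higher, each with a different agent. PLAAT4, a phospholipase and acyltransferase, read 2362 in the control, 5308 with cordycepin and 2304 with cordyceps, with log2 ratios of 1.38 and -0.04. PLA2G4C, a cytosolic phospholipase A2 that acts without calcium, read 214, 253 and 609, with log2 ratios of 0.46 and 1.51. Both lay outside the corner. FADS2, the desaturase that begins the synthesis of arachidonic acid from linoleic acid, read 8456, 4245 and 3727, with log2 ratios of -0.78 and -1.18, and its probe lay in the corner. Of the 12 genes of arachidonate supply and re-esterification, 10 lay below 0 with cordycepin and 11 with cordyceps, with medians of -0.23 and -0.32. The phospholipases A2 had medians of 0.14 over 9 measured genes and -0.19 over 7.

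The other synthases lay mostly under the control. All 6 measured genes of the list of other prostanoid synthases lay below 0 with either agent, with medians of -0.36 and -0.47, and all 6 also lay below the median of all genes. The probes of 4 of them had spots in the corner. PTGDS, which makes prostaglandin D2, read 415 in the control, 147 with cordycepin and 337 with cordyceps, with log2 ratios of -1.28 and -0.30, the first of which was -0.93 with normexp. TBXAS1, which makes thromboxane A2, read 287, 117 and 149, with log2 ratios of -1.08 and -0.95. A second TBXAS1 probe gave -0.02 and -0.89, so its probes disagreed with cordycepin. The call was also lost with block medians removed (-0.98) and with normexp (-0.86). The offset of normexp by itself shrinks the ratios of probes as dim as those of PTGDS and TBXAS1. In the list of cysteinyl leukotriene synthesis and breakdown, all 5 measured genes lay below 0 with cordycepin and 4 of 5 with cordyceps. GGT5, which splits glutamate from leukotriene C4, read 7489, 2665 and 9455, so the cordycepin array was low and the cordyceps array high, with log2 ratios of -1.28 and 0.34. The other lipoxygenases were dim, and 2 of 5 were measured on both arrays with cordycepin, with a median of 0.21, and 0 with cordyceps.

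Genes that remove eicosanoids or sense them held the remaining calls. CYP4F2, a fatty acid hydroxylase that acts on leukotriene B4, read 67.5 in the control, 263.5 with cordycepin and 75.5 with cordyceps, with log2 ratios of 2.18 and 0.16. A second probe of CYP4F2 gave 0.62 and 0.41, and whether either probe separates CYP4F2 from its close paralogs was not tested. The 10 genes of inactivation and export had medians of -0.12 and -0.19. Of the epoxygenases and epoxide hydrolases 3 were measured with each agent, with medians of -0.32 and -0.61 and no call. PTGER2, a receptor of prostaglandin E2, was called lower with both agents, at 192 in the control, 44.6 with cordycepin and 91.1 with cordyceps, with log2 ratios of -1.89 and -1.08. The call with cordyceps held under 3 of 8 settings, the one reported here included, and that with cordycepin was lost with normexp background correction (-0.97). The offset of that correction by itself shrinks the ratio of a probe as dim as that of PTGER2. PTGIR, the prostacyclin receptor, read 24.7, 74.8 and 20.4 and was not well above background on the cordyceps array, and its log2 ratio with cordycepin was 1.81. Its control signal lay near the lowest detected signal of 18.6. With normexp the ratio was 0.85, short of the call, where the offset by itself shrinks the ratio of so dim a probe. LTB4R2, the low-affinity leukotriene B4 receptor, read 149, 116 and 656, with log2 ratios of -0.14 and 2.14, and its probe lay in the corner.

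**Figure D4:**
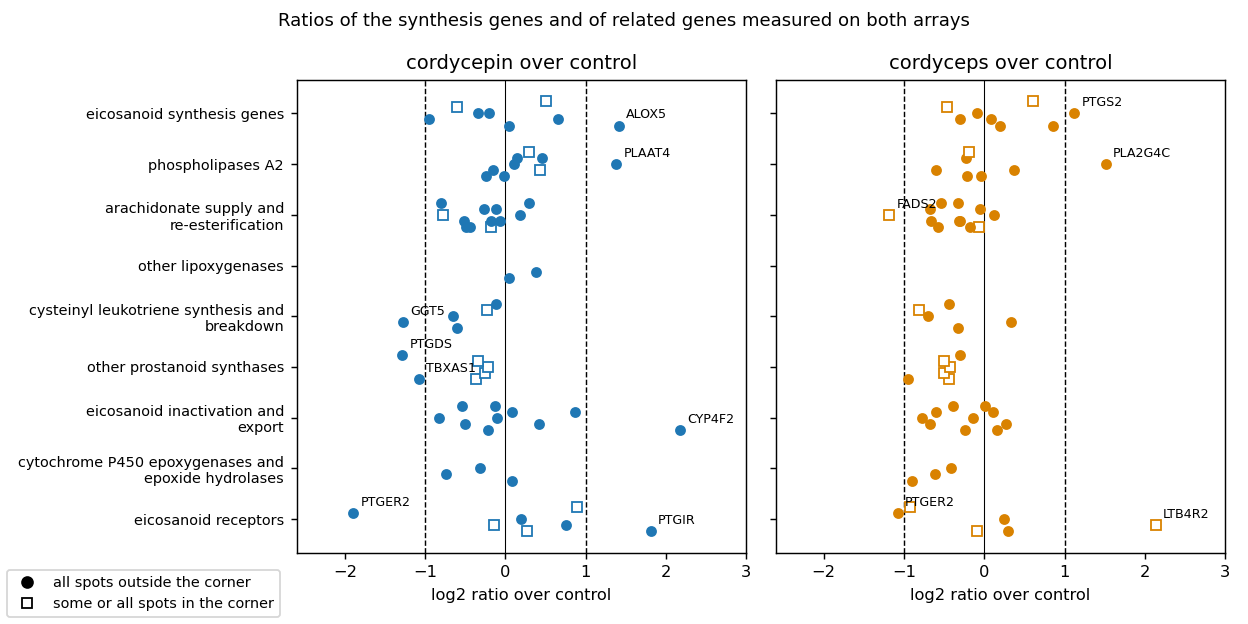
Log2 ratio over control (horizontal axis) of every gene measured on both arrays in the set (top row) and in the 8 lists around it, for cordycepin (left) and cordyceps (right); open squares have some or all spots in the corner, dashed lines mark 2-fold, and genes past 2-fold are named. Prostanoid synthases other than those of the set all lay below 0 in both panels, and LTB4R2 at 2.14 with cordyceps is a corner probe.

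On the cordyceps array a corner of the slide, above row 240 of 384 and above column 82 of 164, carried signs of a local disturbance. The local background was outlying at 11.3% of its spots there, against 0 on the control and cordycepin arrays. With cordyceps, 2.26% to 37.6% of probes were called higher in the blocks of the corner and 1.11% to 7.25% in blocks elsewhere, whereas with cordycepin the shares were 3.93% to 8.63% and 2.56% to 11.4%. Of the 21 spots of the set, 4 lay in the corner, namely the PTGES spot and 3 PLA2G4A spots, and 0 had an outlying background or were saturated or outliers. The 3 corner spots of PLA2G4A gave a log2 ratio with cordyceps of -0.46 ± 0.043 (SD between spots) and the 7 others -0.48 ± 0.114, which did not differ beyond their spread. For PTGES there was no spot elsewhere. In its block 6.64% of probes were called higher with cordyceps. Among genes within 2-fold of its control signal, 3.06% were called higher in the corner and 1.75% elsewhere. For LTB4R2, which was dimmer, these shares were 7.77% and 2.99%, and for FADS2, which was brighter, 4.60% and 2.58% were called lower. The part of the corner in the ratios of PTGES, LTB4R2 and FADS2 was not tested further.

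**Figure D5:**
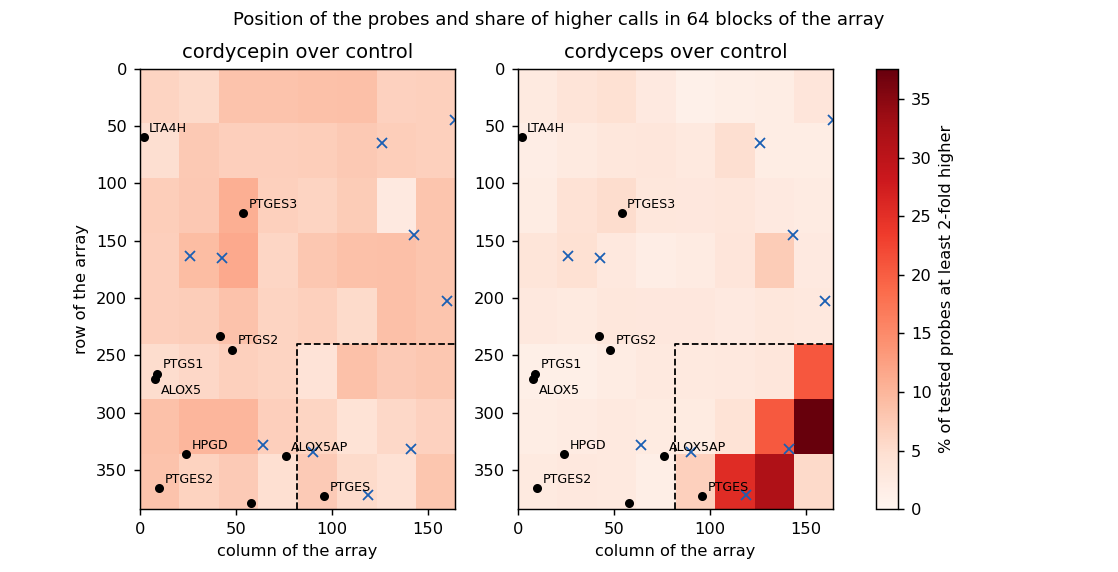
Rows and columns of the array with the single-spot probes of the set (black points, brightest probe named) and the 10 PLA2G4A spots (crosses), over the percentage of tested probes called at least 2-fold higher in each of 64 blocks with cordycepin (left) and cordyceps (right); the dashed line bounds the corner. With cordyceps the share reached 37.6% in the corner and 7.25% at most elsewhere, and PTGES with 3 PLA2G4A spots lay inside it.

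Marker genes were read to check the labelled cell type. All 7 epithelial markers and all 7 genes of enzymes that A549 cells are known to make in large amounts were well above background on every array. EPCAM and MUC1 were called lower with cordycepin (log2 ratios of -1.51 and -1.55), and KRT19, MUC1 and ALDH3A1 with cordyceps (-1.25, -1.15 and -1.36), and 6 of the 7 enzyme genes lay below 0 with each agent. Of 7 alveolar type II markers, 5, 4 and 2 were well above background on the control, cordycepin and cordyceps arrays, and the surfactant genes SFTPA1 and SFTPB were so on none. The summed signal of that list was 305, 443 and 481, of which LAMP3, called higher with both agents, gave 51.4, 213 and 307, and the lowest detected signal was highest on the cordyceps array. SFTPC went the other way, at 85.0, 55.7 and 34.7. It was not well above background with cordyceps and was at least 2.45-fold lower there. Since ALOX5 and ALOX5AP are known mainly from myeloid cells, leukocyte markers are given beside them. Of 7 such markers, 4, 5 and 4 were well above background, with PTPRC, CD14, ITGAM and SPI1 so on every array and CD3E and MPO on none. The summed signal of the list was 3704, 1931 and 2446, of which CD14, which epithelial cells can also make, gave 3387, 1559 and 2183. PTPRC, the common leukocyte antigen, read 99.5, 71.8 and 72.9 by its brightest probe, with log2 ratios of -0.26 and -0.45, whereas its other measured probe gave 0.62 and 0.21. The list was mixed with cordycepin. ITGAM, an integrin of myeloid cells, read 104.5, 135 and 80.2, and SPI1, a transcription factor of myeloid cells, read 87.8, 117 and 60.3, with log2 ratios of 0.58 and 0.63 with cordycepin and -0.38 and -0.54 with cordyceps. CSF1R, the receptor of macrophage colony-stimulating factor, read 15.2, 36.4 and 23.7, was well above background with cordycepin alone and was at least 2.27-fold higher there. Over the 4 markers measured on both arrays the median log2 ratio was 0.16 with cordycepin and -0.50 with cordyceps. The labels name A549 cells alone, and how these transcripts relate to the ALOX5 ratios was not tested. Fibroblast markers were well above background for 1 of 6 genes on each array, and endothelial markers for 2, 2 and 0 of 5.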

How the data were processed

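RNA of 1 culture per condition was hybridized to 1 Agilent whole-genome array each, all on 1 slide scanned together. The labels describe Cy3 labelling of 0.5 μg RNA, and each deposited scanner file has Cy3 alone, whereas the methods of the study also name Cy5 for treated RNA, so ratios were taken between arrays. The authors deposited spot intensity values from Feature Extraction 11.5.1.1, background-subtracted and detrended within each array without scaling across arrays, and a table of values. The intensity values of that table equalled the mean processed signal within 0.1% for 58130, 58149 and 58161 of 58201 rows (column medians 20.3, 21.1 and 16.9), so they are linear, uncentred and unscaled. The study names GeneSpring for normalization and fold changes.

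Here, control spots and outlier spots (106, 80 and 63 on the control, cordycepin and cordyceps arrays) were left out, log2 spots of a probe were averaged, and the 75th percentile of each array was subtracted. Detection asked that 50% or more of the spots of a probe be well above background (28494, 27666 and 24505 probes). A gene was its probe with the highest mean over the arrays. A ratio was measured when both arrays detected the probe. When 1 did, it was a bound against the higher of the dim value and the lowest detected signal. Unversioned accessions of the design (hg19) were named through the GRCh38.p14 gene table, where 31097 matched, and promoter sequences are from RefSeq on GRCh38.p14. The text names every probe of the 10 genes, the listed pathway genes called at 2-fold, markers by list, and the 3 genes nearest to a member called with cordycepin. The genes, lists and motifs were chosen with earlier results of these data known. A further leukocyte marker of the original list was left out of the analysis and is not reported here. With 1 array per condition no test was run, and precision is limited by how few the arrays are. The calling step alone was tested on simulated data, with large changes planted in bright probes. That does not test calls near 2-fold, dim probes, bounds, scaling or the corner. Alternatives were median scaling, quantile normalization, no scaling, the percentile over probes that all arrays detected, normexp background correction with an offset of 50 (on the median spot signal), 3 other detection filters, outlier spots kept, the value table, the median over probes, 1.5-fold and 3-fold thresholds, and the corner left out. Removing the median of 64 blocks was added after seeing the data. Python 3.11.15 with numpy 2.4.6 and pandas 2.3.3, and R 4.3.3 with limma 3.58.1, were used.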

Additional observations from a re-analysis of the deposited data

How the results depend on the processing

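With median scaling, 1 of the 10 genes (HPGD) was called lower with cordycepin, the median of the genes moved to -0.34 with cordycepin and to 0.41 with cordyceps, and 2 genes (PTGS2 and ALOX5) were called higher with cordyceps. With no scaling, 1 gene (HPGD) was called lower with cordycepin. At 1.5-fold, 2 genes were higher and 2 lower with cordycepin and 3 were higher with cordyceps, and at 3-fold 0 genes were higher with either. The shares of all genes past 1.5-fold and 3-fold were not counted, so these counts are no result about the set. Without a detection filter, or with detection by a positive and significant signal, 1 gene (ALOX5AP) was called lower with cordyceps. The cause is in the construction of these settings, which shift all ratios of an array, move the threshold or admit dim probes. Leaving out the corner removed the only PTGES probe, so it has no value there. Of the values of single genes under an alternative, 194 moved by less than the robust technical SD (0.25 and 0.20) and 20 by more, and the sign changed for PTGES2 with cordycepin (-0.22 with median scaling) and for LTA4H with cordyceps (0.18). The larger moves came with median scaling, or were of ALOX5AP with another detection filter. The array medians lay near background, since fewer than 50% of probes were detected on each array. Other detection filters, outlier spots kept and the value table leave the ratio of a measured probe nearly unchanged by construction. Neither the 194 nor the number of settings behind a range therefore measures stability. Among the called pathway genes, FADS2 and PTGER2 with cordyceps lost the call with median scaling (-0.91 and -0.81), and PTGDS, TBXAS1, PTGER2 and PTGIR with cordycepin lost it with normexp (-0.93, -0.86, -0.97 and 0.85). These genes read 147, 117, 44.6 and 74.8 with cordycepin, where the normexp offset of 50 by itself shrinks a ratio. TBXAS1 with cordycepin (-0.98) and PTGER2 with cordyceps (-0.98) also lost it with block medians removed. Over all genes, the calls with cordycepin (947 higher and 569 lower) became 596 and 1179 with median scaling, 655 and 1007 with no scaling and 388 and 269 with normexp. Those with cordyceps (654 and 492) became 962 and 208 with median scaling, 423 and 232 with normexp and 417 and 278 with the corner left out. No paired analysis was possible because each condition has 1 array. PTGS1 lay under the lowest detected signal (18.6, 21.8 and 34.5) on every array and has no ratio. ALOX5AP passed it on the control array alone, by too little for a bound to show a difference.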
